A study of Mus musculus with 32 samples.

Results

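The Slc25 genes encode the mitochondrial carrier family, the proteins that move metabolites, nucleotides, cofactors and ions across the inner mitochondrial membrane. Probes were taken as members when their identifier belonged to a mouse gene whose symbol is Slc25a followed by a number. A member also had to be called well above background on at least 4 arrays, and each gene was read by its brightest probe. The arrays carried 56 probes for 47 such genes among the 20659 genes with a named probe, and 40 of the 47 passed. The 7 that did not pass were Slc25a2, Slc25a21, Slc25a31, Slc25a41, Slc25a43, Slc25a53 and Slc25a54. Of the 40, 31 were well above background on every array, and no member was saturated on any array.

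The transcripts were measured on 32 one-colour Agilent arrays of mouse RNA, 4 per group. In culture the groups were Pparg knockdown and its control, and Gyk knockdown and its own control; all 16 were labelled as room temperature. From mice they were Pparg knockout and Pparg control in the cold, and Pparg knockout and Pparg control at room temperature. All samples were of strain C57Bl/6 and were labelled as preadipocytes. Pparg encodes the nuclear receptor of adipocyte differentiation, and Gyk is glycerol kinase, whose current symbol is Gk. The labels do not give how the genes were silenced or deleted, in which cells of the mouse the deletion lay, the age of the mice, or whether the 4 samples of a group were separate cultures or animals. The p-values below therefore rest on the scatter among these samples, part or all of which may be technical.

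Mitochondrial carriers share a fold of repeated pairs of membrane helices and work mostly as exchangers, taking one substrate in while letting another out. They set which compounds made in the cytosol reach the enzymes of the matrix, and the reverse. In brown fat, where the uncoupling protein Ucp1, itself a relative of these carriers, turns fuel oxidation into heat, they bring in the acylcarnitines, phosphate, cofactors and amino acids that oxidation uses, and let out citrate for fatty acid synthesis.

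Array signal differed widely, with a 75th percentile of intensity between 141.3 and 806.3, and the lowest values, 141.3 and 245.5, were those of Gyk knockdown arrays 3 and 4. All values below are log2 intensities minus the array's 75th percentile, and differences carry the standard error of the limma fit. A member was called when its p, adjusted over all genes tested in that comparison, was below 0.05. The Pparg level was lower by 1.91 on Pparg knockdown arrays, with 4.1, 4.1, 4.38 and 4.36 on Pparg knockdown arrays, against 5.99, 5.97, 6.29 and 6.34 on control arrays. Gk had -2.61, -3, -1.4 and -1.19 on Gyk knockdown arrays, against 0.4, 0.38, 0.22 and 0.39 on control arrays. On the arrays labelled knockout the Pparg probe read higher, by 2.08 ± 0.09 at room temperature and 2.13 ± 0.22 in the cold. Where the probe lies relative to the deletion is not given in the sources used here, so the probe does not check those labels. All 7 adipocyte markers (Pparg itself, Adipoq, Fabp4 and others) were well above background on all 32 arrays. Their summed linear level was 288 to 381 times the array's 75th percentile in Pparg knockdown cells and 780 to 952 in control cells. At room temperature it was 778 to 842 on arrays labelled knockout and 1210 to 1570 on control arrays, and in the cold 806 to 952 on arrays labelled knockout and 1330 to 1460 on control arrays. These sums include the targeted gene, Pparg. All 7 markers were lower in Pparg knockdown, where 16% of all genes were. On arrays labelled knockout 6 were lower at either temperature (25% of all genes at room temperature and 18.3% in the cold), and Pparg was the 1 higher. In RNA of a whole sample, fewer adipocytes and less RNA per adipocyte cannot be told apart. The 8 skeletal muscle markers summed to 73.5 to 132 on arrays labelled knockout at room temperature, against 0.696 to 4.6 on control arrays, where Ckm, Mylpf, Myh1 and Myh4 were not well above background. In the cold the muscle sum was 131, 187, 109 and 150 on arrays labelled knockout, against 155, 195, 1.1 and 3.01 on control arrays 1 to 4. The sum can rest on few genes. At room temperature 1 of 3 tested was called higher, with a largest difference of 6.63. In the cold 1 of 7 was called higher (largest 5.79), while 6 were negative and uncalled, with a median of -3.78. Gyk control cells summed to 55.9 to 73.4 with Ckm, Mylpf, Myh1, Myh4 and Tnnt3 not well above background. A high sum alone therefore does not show muscle RNA. The part of muscle RNA in the room temperature results was not tested. In the cold, control arrays 1 and 2, called rich in muscle transcripts below, lay on one slide. Control arrays 3 and 4, called poor, lay on the other, so muscle sum and slide cannot be told apart. Each called knockout result in the cold is given below against either pair of control arrays as well.

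Most carriers were lower in Pparg knockdown cells. Of 36 members tested, 21 were lower and 2 higher in Pparg knockdown than in control cells, while 16% of the 12844 genes tested were lower and 18.1% higher (34.1% in either direction). The median member differed by -0.454, and the median of all genes by 0.0255. In Gyk knockdown cells 7 of 36 members were lower and 2 higher, where 4.11% of all genes were lower and 4.65% higher (8.76% in all). Among arrays labelled knockout at room temperature, 12 of 37 members were lower (32.4%) and 6 higher (16.2%), near the 25% lower and 19.6% higher among all genes (44.6% together). In the cold 11 of 37 were lower and 4 higher, and of all genes 18.3% were lower and 13.7% higher (32% together). Members whose groups did not overlap numbered 23, 14, 18 and 16 in these comparisons, where all genes gave 35.9%, 22.5%, 43.2% and 34.3%. Each slide held both groups of its experiment, and all called members (23, 9, 18 and 15) kept their sign on both slides. These are the same values that gave the calls, so the shared sign is not a separate check. In Pparg culture, arrays of the same number deviated together, but so did arrays of other numbers on the same slide. Pairing by number is thus not told apart from a shared slide. With the number as a block 31 members were called there. On leaving out any 1 array, 19 of 23, 2 of 9, 15 of 18 and 13 of 15 calls were kept each time. Those lost were Slc25a4, Slc25a12, Slc25a14 and Slc25a17 in Pparg knockdown, Slc25a4, Slc25a38 and Slc25a45 at room temperature, and Slc25a27 and Slc25a28 in the cold; in Gyk knockdown only Slc25a17 and Slc25a33 were kept. The Gyk count moved most: leaving out 1 knockdown array gave 5 without array 2, 3 or 4 and 11 without array 1, and leaving out 1 control array gave 5, 3, 2 and 2 without arrays 1 to 4. With normexp background correction the calls were 10 lower and 2 higher at room temperature, and 13 lower and 1 higher in the cold. Calls lost under it in Pparg knockdown were those of Slc25a4, Slc25a17, Slc25a27 and Slc25a45. In one fit over all 32 arrays 12 of the Pparg knockdown calls were left, without Slc25a1, Slc25a4, Slc25a10, Slc25a12, Slc25a14, Slc25a17, Slc25a25, Slc25a32, Slc25a34, Slc25a44 and Slc25a45.

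Markers of several cell types moved in some of these comparisons. Of all genes, 16% were lower and 18.1% higher in Pparg knockdown, and 4.11% and 4.65% in Gyk knockdown. On arrays labelled knockout the shares were 25% and 19.6% at room temperature, and 18.3% and 13.7% in the cold. Brown adipocyte markers (Ucp1 and others) were lower for 5 of 5 tested in Pparg knockdown, 5 of 6 in Gyk knockdown, and 4 of 6 on arrays labelled knockout at either temperature, where 1 was higher at room temperature. Preadipocyte and fibroblast markers were higher for 5 of 7 in Pparg knockdown, where they summed to 19.7 to 23.3, against 12.9 to 15.9 in control cells. They were also higher for 5 of 7 in the cold, at 35.9 to 51.9 on arrays labelled knockout, against 24.6 to 28.3 on control arrays. All 4 macrophage markers were higher in the cold, at 19.7 to 33.1 on arrays labelled knockout, against 13 to 15.2 on control arrays. All 3 endothelial markers were lower at room temperature, at 8.4 to 10.9 on arrays labelled knockout, against 12.3 to 18 on control arrays. Elsewhere they mostly did not pass. Of the preadipocyte and fibroblast markers, 1 of 7 was higher at room temperature, where 5 differences were negative, and 0 of 6 passed in Gyk knockdown. No macrophage marker passed in either culture or at room temperature, and no endothelial marker in either culture or in the cold. The part of these cells in the carrier values was not tested.

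**Figure D1:**
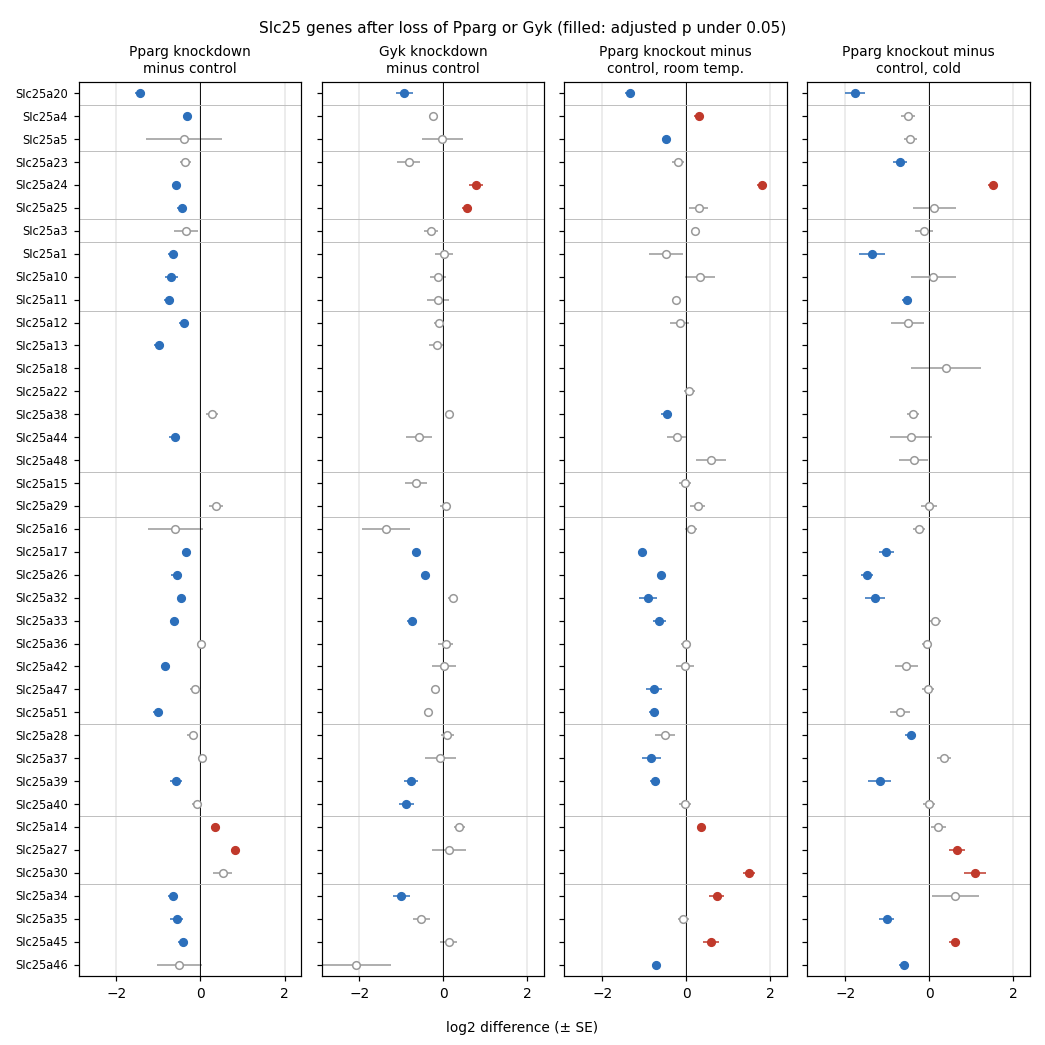
Log2 difference, with its standard error, of the members drawn (1 member not reported here is left out) in Pparg knockdown, Gyk knockdown, and arrays labelled knockout at either temperature, all against their own control (4 arrays per group); genes are ordered by carrier role and filled points passed an adjusted p of 0.05. In Pparg knockdown most points lie below 0, and Slc25a20 lies lowest of the called members in all panels but that of Gyk knockdown.

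Only Slc25a20, Slc25a17, Slc25a26 and Slc25a39 were called lower in all 4 comparisons, which is 12.1% of the 33 members tested in all of them, against 0.915% of 11252 genes. No member was called higher in all 4, as were 0.338% of genes. The set of 4 depends on Gyk calls, of which 0 of 9 were kept under every alternative. For all 4 genes the Gyk call was lost with normexp background correction and with the replicate number as a block. Those of Slc25a20 and Slc25a39 were also each lost on leaving out any of 5 of the 8 arrays. Slc25a20 is the carnitine-acylcarnitine carrier, through which long-chain fatty acids enter the matrix for oxidation. Slc25a17 is a carrier of the peroxisomal membrane for coenzyme A, FAD and NAD. Slc25a26 brings the methyl donor S-adenosylmethionine into mitochondria, and Slc25a39 imports glutathione.

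Slc25a20 had 0.3, 0.45, 0.61 and 0.62 on Pparg knockdown arrays, against 1.84, 1.8, 2.21 and 1.83 on control arrays, a difference of -1.43 ± 0.12 (2.69-fold, adjusted p = 4.18e-05). In the Gyk experiment it had 1.14, 1.18, 0.24 and 0.67 on knockdown arrays, against 1.67, 1.83, 1.74 and 1.71 in control cells (-0.93 ± 0.21, adjusted p = 0.034). The control arrays of both experiments lay close together, and every knockdown array lay below them, the Gyk knockdown arrays with the wider spread. At room temperature Slc25a20 had 3.07, 3.1, 2.89 and 2.91 on arrays labelled knockout, against 4.05, 4.44, 4.5 and 4.36 on control arrays (-1.35 ± 0.12, adjusted p = 6.82e-05). In the cold it had 2.9, 2.46, 1.91 and 1.98 on arrays labelled knockout, against 4.38, 4.04, 3.85 and 4.05 on control arrays (-1.77 ± 0.23, adjusted p = 0.00116). No array of a loss group reached its controls in any experiment, so that the exact 2-sided permutation test gave 0.0286 each time, the smallest p that 4 against 4 arrays allow. In the cold the difference was -1.53 on the slide of control arrays 1 and 2, where all arrays had a high muscle sum, and -2.01 on the other. Those high sums need not rest on the same genes in both groups.

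Slc25a17 had 3.89, 4.05, 3.98 and 3.8 on arrays labelled knockout at room temperature, against 4.9, 4.93, 5.09 and 5 on control arrays (-1.05 ± 0.09, adjusted p = 5.42e-05). In the cold it had 3.31, 3.39, 3.09 and 3.09 on arrays labelled knockout, against 4.7, 3.89, 4.07 and 4.31 on control arrays (-1.02 ± 0.18, adjusted p = 0.00435). In culture the differences were smaller. Pparg knockdown arrays had -0.36, -0.4, -0.19 and -0.18 on Pparg knockdown arrays, against -0.1, -0.11, 0.19 and 0.25 on control arrays (-0.34 ± 0.11, adjusted p = 0.0463), and the call was lost on leaving out any of 6 of the 8 arrays, with adjusted p up to 0.112. Gyk knockdown arrays had -0.41, -0.33, -0.44 and -0.19 on Gyk knockdown arrays, against 0.34, 0.27, 0.29 and 0.32 on control arrays (-0.65 ± 0.1, adjusted p = 0.00972).

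Slc25a26 had 0.66, 0.42, 0.07 and 0.25 on arrays labelled knockout in the cold, against 1.76, 1.84, 1.82 and 1.9 on control arrays (-1.48 ± 0.14, adjusted p = 0.000305). At room temperature it had 0.42, 0.35, 0.39 and 0.29 on arrays labelled knockout, against 0.93, 0.96, 0.97 and 0.99 on control arrays (-0.6 ± 0.07, adjusted p = 0.000277). The groups were well apart at both temperatures. In culture Pparg knockdown gave -0.57 ± 0.14 (adjusted p = 0.0113) and Gyk knockdown -0.44 ± 0.1 (adjusted p = 0.0398). The Gyk call was lost on leaving out any of 7 of 8 arrays. A dimmer probe of the gene gave -1.20 in Gyk knockdown.

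Slc25a39 had 1.98, 1.92, 0.78 and 1.52 on arrays labelled knockout in the cold, against 3.02, 2.43, 2.65 and 2.84 on control arrays (-1.18 ± 0.27, adjusted p = 0.011). At room temperature the difference was -0.75 ± 0.11 (adjusted p = 0.000793). Gyk knockdown arrays had 1.49, 1.18, 1.09 and 1.67 on Gyk knockdown arrays, against 1.87, 2.34, 2.13 and 2.16 on control arrays (-0.77 ± 0.17, adjusted p = 0.0304), and Pparg knockdown gave -0.58 ± 0.14 (adjusted p = 0.012). The cold difference was about the same against the control arrays rich in muscle transcripts (-1.17, adjusted p = 0.062) and against the poor ones (-1.20, adjusted p = 0.0391). Against the rich and the poor control arrays, Slc25a20 differed by -1.90 and -1.64, Slc25a17 by -1.08 and -0.97, and Slc25a26 by -1.45 and -1.51, all still called.

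**Figure D2:**
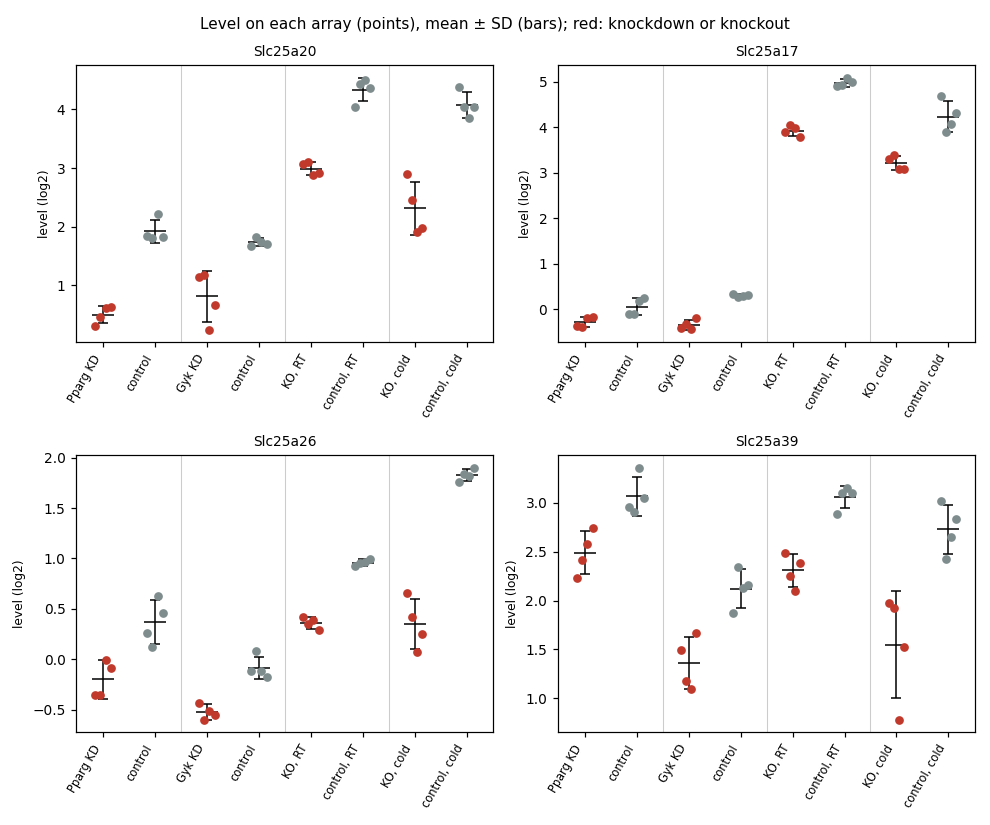
Log2 level relative to the array's 75th percentile of Slc25a20, Slc25a17, Slc25a26 and Slc25a39 on each array, with the mean and SD of 4 arrays, for the knockdown or knockout arrays (red) and their controls (grey). For Slc25a20 the red and grey points do not overlap in any experiment, at 2.89 to 3.1 against 4.05 to 4.5 at room temperature, for example.

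The RefSeq promoter table (GRCm38.p6, 250 bases before to 50 after each gene's start) held 3 of these 4 genes, shown because these carriers moved the same way in every loss. Capitals mark the motif named for each: the ETS core CCGGAAG in Slc25a20 (chr9:108661886-108662185, plus strand) and in Slc25a17 (chr15:81360716-81361015, minus strand), where the box CCAAT is capitalised too, and the nuclear receptor half-site AGGTCA, read on the other strand as TGACCT, in Slc25a39 (chr11:102407468-102407767, minus strand).
Slc25a20: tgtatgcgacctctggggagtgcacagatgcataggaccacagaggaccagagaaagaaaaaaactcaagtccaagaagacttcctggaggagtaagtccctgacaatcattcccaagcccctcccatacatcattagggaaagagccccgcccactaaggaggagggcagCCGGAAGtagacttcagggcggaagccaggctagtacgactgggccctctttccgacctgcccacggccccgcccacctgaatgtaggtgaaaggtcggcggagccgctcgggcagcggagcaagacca
Slc25a17: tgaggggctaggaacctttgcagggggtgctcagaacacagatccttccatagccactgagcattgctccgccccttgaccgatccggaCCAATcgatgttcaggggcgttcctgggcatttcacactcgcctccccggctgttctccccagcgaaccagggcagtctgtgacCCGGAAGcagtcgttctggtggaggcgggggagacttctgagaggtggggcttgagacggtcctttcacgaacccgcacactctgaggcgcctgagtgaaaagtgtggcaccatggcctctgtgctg
Slc25a39: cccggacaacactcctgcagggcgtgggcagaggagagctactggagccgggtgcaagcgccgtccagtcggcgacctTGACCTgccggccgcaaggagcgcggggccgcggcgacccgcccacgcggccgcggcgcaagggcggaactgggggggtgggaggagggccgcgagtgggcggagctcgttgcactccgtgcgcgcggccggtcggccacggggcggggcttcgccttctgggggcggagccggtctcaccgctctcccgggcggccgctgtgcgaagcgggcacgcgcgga
Each motif was searched on both strands. CCGGAAG was in 6 of the 31 member promoters looked at (19.4%) and in 8.86% of 32851 promoters, and CCAAT in 17 (54.8%) and 37.4%. AGGTCA was in 4 member promoters (12.9%; those of Slc25a34, Slc25a39, Slc25a45 and Slc25a47) and in 16.3% of all. The half-site AGGTCA repeated after a gap of 1 base, the form bound by Pparg with its partner receptor, was in 0 of 31 and in 0.0396% of all; each such match also counts as AGGTCA. The site of the nuclear respiratory factor NRF1 was in 0 and in 0.971%. These are matches of letters within the window, not binding sites.

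Among the 10 carriers of cofactors and nucleotides tested, 7 were lower in Pparg knockdown (16% of all genes were) and 3 in Gyk knockdown (4.11%). On arrays labelled knockout 6 were lower at room temperature (25% of all genes) and 3 in the cold (18.3%). None was higher in these comparisons. Slc25a51, the NAD carrier, had 1.53, 1.52, 1.71 and 1.58 on Pparg knockdown arrays, against 2.53, 2.42, 2.74 and 2.73 on control arrays (-1.02 ± 0.1, adjusted p = 8.04e-05). Slc25a42, which imports coenzyme A, had 3.98, 4.02, 4.13 and 4.07 on Pparg knockdown arrays, against 4.6, 4.87, 4.97 and 5.11 on control arrays (-0.84 ± 0.11, adjusted p = 0.000588). Both fell without overlap between the groups. In Gyk knockdown these carriers gave -0.37 ± 0.1 and 0.02 ± 0.28, neither of them called (adjusted p = 0.0585 and 0.961). A dimmer Slc25a51 probe, not tested on its own, gave -0.70 there.

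On arrays labelled knockout at room temperature, Slc25a51 had 3.97, 3.99, 3.78 and 3.88 on arrays labelled knockout, against 4.93, 4.55, 4.57 and 4.7 on control arrays (-0.78 ± 0.1, adjusted p = 0.000584); in the cold the difference was -0.7 ± 0.24 (adjusted p = 0.0509). Slc25a42 did not pass at either temperature, with -0.03 (95% interval -0.51 to 0.45) at room temperature and -0.55 (-1.15 to 0.05) in the cold. So in mice the coenzyme A carrier did not pass the test that it passed in culture, which is not a test of the difference.

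Slc25a32, a carrier of folate and FAD, had 0.26, 0.34, 0.36 and 0.13 on arrays labelled knockout at room temperature, against 1.55, 1.4, 1.25 and 0.52 on control arrays (-0.91 ± 0.21, adjusted p = 0.00822). In the cold 3 arrays labelled knockout had -0.53, -0.65 and -0.85, with array 2 left out as an outlying spot, against 0.37, 0.15, 1.06 and 0.9 on control arrays (-1.3 ± 0.24, adjusted p = 0.00605). That value rests on leaving out the spot: with it kept, the difference was 0.34 (adjusted p = 0.869). Against the control arrays rich and poor in muscle transcripts it was -0.94 and -1.66, called both times. The pyrimidine nucleotide carrier Slc25a33 had 3.13, 3.27, 3.18 and 3.52 on Gyk knockdown arrays, against 4.08, 3.98, 3.94 and 4.06 on control arrays (-0.74 ± 0.12, adjusted p = 0.0107), and -0.63 in Pparg knockdown (adjusted p = 0.00172). A dimmer Slc25a33 probe, not tested on its own, gave -1.52 in Gyk knockdown and -0.70 in Pparg knockdown.

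All 3 carriers of di- and tricarboxylates were lower in Pparg knockdown, as were 16% of all genes. None passed in Gyk knockdown or at room temperature, where 8.76% and 44.6% of all genes passed. Slc25a1, which exports citrate for fatty acid synthesis, had 3.14, 3.26, 3.4 and 3.53 on Pparg knockdown arrays, against 3.85, 3.86, 4.12 and 4.14 on control arrays (-0.66 ± 0.11, adjusted p = 0.00227). Slc25a10, the dicarboxylate carrier, had 0.2, 0.34, 0.53 and 0.74 on Pparg knockdown arrays, against 1.07, 0.9, 1.48 and 1.13 on control arrays (-0.69 ± 0.15, adjusted p = 0.00841). Slc25a11, the oxoglutarate carrier of the malate-aspartate shuttle, had 5.07, 4.97, 5.18 and 5.25 on Pparg knockdown arrays, against 5.72, 5.66, 6.09 and 6.03 on control arrays (-0.76 ± 0.12, adjusted p = 0.00144). None of the 3 overlapped with its control arrays. In Gyk knockdown the same carriers lay at 0.02, -0.12 and -0.12.

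In the cold Slc25a1 had 4.78, 4.66, 3.86 and 4.92 on arrays labelled knockout, against 6.05, 5.14, 6.07 and 6.37 on control arrays (-1.36 ± 0.31, adjusted p = 0.0117). Its difference was -1.04 (adjusted p = 0.0845) against the control arrays rich in muscle transcripts and -1.67 (adjusted p = 0.0104) against the poor ones. At room temperature its arrays labelled knockout had 4.44, 3.43, 2.99 and 3.7 on arrays labelled knockout, against 4.64, 4.84, 3.7 and 3.35 on control arrays, and overlapped (-0.49 ± 0.4, adjusted p = 0.345). Slc25a11 was lower as well in the cold, with 5.66, 5.47, 5.41 and 5.39 on arrays labelled knockout and 6.1, 5.92, 5.86 and 6.14 on control arrays (-0.52 ± 0.12, adjusted p = 0.0125). It gave -0.53 and -0.52 against the control arrays rich and poor in muscle transcripts, and with quantile normalization the difference shrank to -0.28 and was no longer called (adjusted p = 0.066).

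Of the 4 amino acid carriers of the aspartate and glutamate group tested in culture, 3 were lower in Pparg knockdown (16% of all genes were). None passed in Gyk knockdown, where 8.76% of all genes did. Slc25a13, an aspartate-glutamate exchanger, had -2.66, -2.8, -2.55 and -2.72 on Pparg knockdown arrays, against -1.94, -1.82, -1.56 and -1.5 on control arrays (-0.98 ± 0.12, adjusted p = 0.000279). It was well above background on all 16 culture arrays but on 2 of 16 mouse arrays, too few for a test there. Slc25a12, its paralogue, had 1.09, 1.01, 1.2 and 1.25 on Pparg knockdown arrays, against 1.36, 1.54 and 1.71 on 3 control arrays, with array 4 missing (-0.4 ± 0.11, adjusted p = 0.0276). Slc25a44, which brings branched-chain amino acids into brown fat mitochondria, had -1.24, -1.07, -0.98 and -0.82 on Pparg knockdown arrays, against -0.47, -0.62, -0.15 and -0.42 on control arrays (-0.61 ± 0.13, adjusted p = 0.00538). A separate, dimmer Slc25a44 probe gave -0.48 there, and is treated again with the cold comparison below. In mice Slc25a44 did not pass on arrays labelled knockout, at -0.23 (-0.73 to 0.26) at room temperature and -0.44 (-1.59 to 0.7) in the cold. The dimmer probe, not tested on its own, gave -0.32 and -0.98.

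The adenine nucleotide translocases, which exchange ADP for ATP, showed small differences of either sign. Slc25a4 had 7.65, 7.52, 7.72 and 7.75 on Pparg knockdown arrays, against 7.89, 7.89, 8.05 and 8.1 on control arrays (-0.32 ± 0.09, adjusted p = 0.0223). On arrays labelled knockout at room temperature it was the other way, with 7.02, 7.05, 6.78 and 6.93 on arrays labelled knockout, against 6.49, 6.65, 6.72 and 6.75 on control arrays (0.29 ± 0.1, adjusted p = 0.0351). Slc25a5 had 4.63, 4.6, 4.6 and 4.45 on arrays labelled knockout, against 4.85, 5.08, 5.12 and 5.17 on control arrays (-0.49 ± 0.09, adjusted p = 0.00357) on the same arrays, so the translocases moved in opposite directions there. The phosphate carrier Slc25a3 passed in none of the 4 losses, at -0.34, -0.3, 0.2 and -0.12. In the Pparg culture it had 3.9, 3.97, 3.03 and 3.4 on knockdown arrays, against 4.3, 4.34, 3.51 and 3.51 on control arrays, which overlapped across slides, and the replicate block gave an adjusted p of 0.00967.

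The ATP-Mg/phosphate carriers, which adjust the adenine nucleotide pool of the matrix, did not all move alike in culture: Slc25a24 and Slc25a25 were lower in Pparg knockdown and higher in Gyk knockdown, and Slc25a23 lay lower in both without being called. Slc25a23 had -2.21, -2.3, -2.08 and -2.01 on Pparg knockdown arrays, against -2.04, -1.96, -1.55 and -1.62 on control arrays (-0.36 ± 0.13, adjusted p = 0.0649). In the Gyk experiment Slc25a23 had -0.74, -0.74, -1.93 and -1.61 on knockdown arrays, against -0.33, -0.47, -0.37 and -0.51 on control arrays, with no overlap (-0.83 ± 0.28, adjusted p = 0.101). Slc25a24 had -0.31, -0.47, -0.64 and -0.57 on Pparg knockdown arrays, against 0.14, 0.14, 0 and 0.04 on control arrays (-0.58 ± 0.09, adjusted p = 0.00143). Gyk knockdown arrays had 0.72, 0.83, 0.95 and 0.96 on Gyk knockdown arrays, against -0.39, 0.19, 0.28 and 0.31 on control arrays (0.77 ± 0.17, adjusted p = 0.0338), and this rise was lost on leaving out any of 6 of 8 arrays. On arrays labelled knockout at room temperature Slc25a24 rose to 0.76, 0.77, 0.48 and 0.93 on arrays labelled knockout, against -1.23, -1.04, -1 and -0.98 on control arrays (1.8 ± 0.11, adjusted p = 1.6e-05). In the cold it had -0.38, -0.47, -0.54 and -0.45 on arrays labelled knockout, against -1.85, -1.97, -2.15 and -1.92 on control arrays (1.51 ± 0.11, adjusted p = 9.45e-05), and 1.45 and 1.58 against the control arrays rich and poor in muscle transcripts. It was the largest rise among the members called in both knockout comparisons. The groups did not overlap in any of the 4, which by itself sets the exact permutation p at 0.0286 each time.

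Slc25a25 followed Slc25a24 in culture. It had 0.09, 0.04, 0.44 and 0.35 on Pparg knockdown arrays, against 0.57, 0.61, 0.75 and 0.79 on control arrays (-0.45 ± 0.11, adjusted p = 0.0138), and 1.69, 1.99, 1.58 and 1.92 on Gyk knockdown arrays, against 1.32, 1.2, 1.27 and 1.17 on control arrays (0.56 ± 0.12, adjusted p = 0.0318). A second Slc25a25 probe read 0.06 in Gyk knockdown. Slc25a25 did not pass on arrays labelled knockout (room temperature 0.29, cold 0.12). The difference between the knockdown effects, Pparg minus Gyk, was tested over the 16 culture arrays and passed for 6 of 37 members, 1 positive and 5 negative, where 12.4% of all genes passed (6.29% positive and 6.14% negative). It was -1.34 ± 0.2 for Slc25a24 (adjusted p = 0.000328) and -1.01 ± 0.17 for Slc25a25 (adjusted p = 0.000842). Slc25a13 (-0.82), Slc25a32 (-0.67) and Slc25a51 (-0.65) were likewise lower in Pparg than in Gyk knockdown relative to their controls. Dimmer probes gave -0.21 for Slc25a51 and -0.65 for Slc25a25 in this test. The calls of Slc25a13 and Slc25a51 were lost with normexp background correction. In one fit over all 32 arrays those of Slc25a13, Slc25a25, Slc25a32 and Slc25a51 were lost. That of Slc25a13 was also lost on leaving out any of 5 of 16 arrays. Slc25a40, a glutathione carrier, differed the other way (0.81 ± 0.22, adjusted p = 0.0259). It had -2.53, -2.19, -2.2 and -1.67 on Gyk knockdown arrays, against -1.21, -1.37, -1.32 and -1.16 on control arrays (-0.88 ± 0.18, adjusted p = 0.0254), and -0.08 in Pparg knockdown. The Gyk knockdown value of Slc25a40 with normexp background correction was -0.42 (adjusted p = 0.326) and the difference between the effects 0.13 (adjusted p = 0.785).

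**Figure D3:**
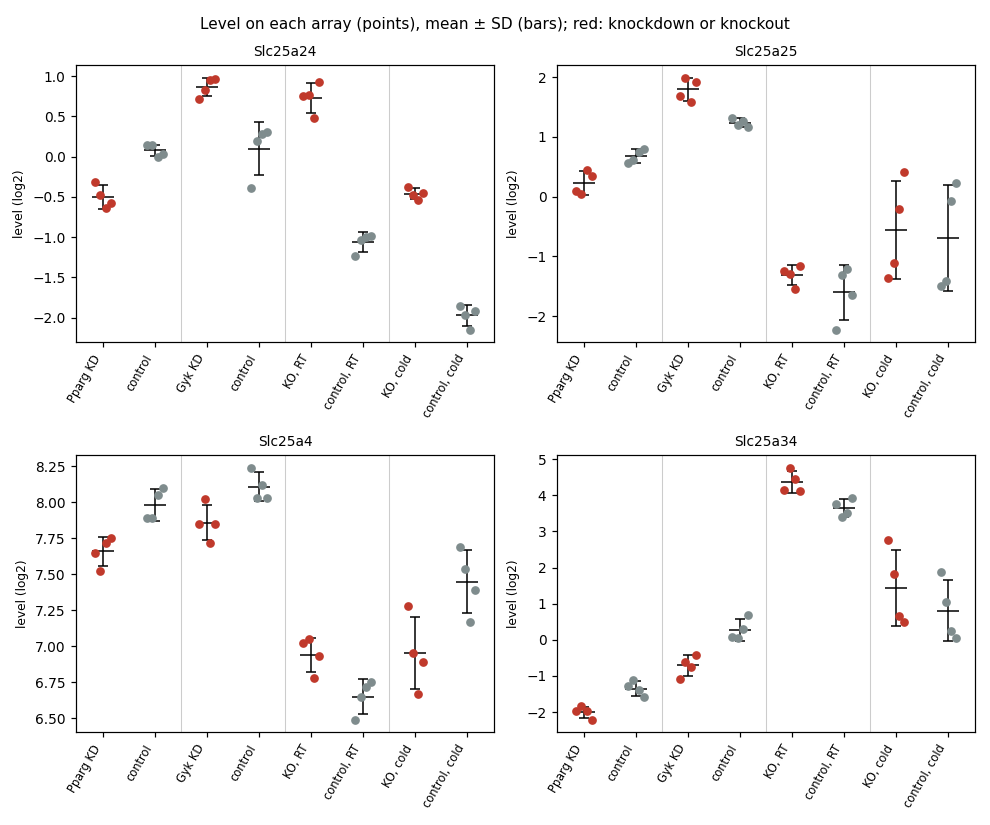
Log2 level relative to the array's 75th percentile of Slc25a24, Slc25a25, Slc25a4 and Slc25a34 on each array, with the mean and SD of 4 arrays, for the knockdown or knockout arrays (red) and their controls (grey). Slc25a24 lies below its controls in Pparg knockdown (-0.64 to -0.31 against 0.00 to 0.14) and above them in the other 3 experiments.

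Of the uncoupling-protein-like members, Slc25a14, Slc25a27 and Slc25a30 had calls in the Pparg losses, all higher, but most of these calls depended on the background correction. Slc25a27 had -2.81, -2.61, -2.53 and -2.65 on Pparg knockdown arrays, against -3.52, -3.6, -3.35 and -3.42 on control arrays (0.82 ± 0.09, adjusted p = 0.000186), and Slc25a14 had 0.87, 0.88, 1.01 and 1.12 on Pparg knockdown arrays, against 0.58, 0.44, 0.76 and 0.69 on control arrays (0.35 ± 0.1, adjusted p = 0.024). Slc25a30 had -2.61, -2.22, -2.25 and -2.46 on arrays labelled knockout at room temperature, against -3.99, -3.64, -3.74 and -4.13 on control arrays, 3 of them well above background (1.49 ± 0.14, adjusted p = 9.92e-05). In the cold it had -2.31, -3.01, -3.15 and -3.15 on arrays labelled knockout, against -4.4, -3.36, -4.05 and -4.13 on control arrays (1.08 ± 0.26, adjusted p = 0.015). The cold call was lost against the control arrays rich in muscle transcripts (0.97, adjusted p = 0.092) and kept against the poor ones (1.18, adjusted p = 0.0181). Slc25a30 thus read higher at both temperatures, from a level close to background. Slc25a14 read higher at room temperature too, with -0.73, -0.81, -0.77 and -0.64 on arrays labelled knockout, against -1.12, -1.19, -1.07 and -0.97 on control arrays (0.35, adjusted p = 0.00793), and Slc25a27 in the cold, with -2.46, -2.12, -1.79 and -2.29 on arrays labelled knockout, against -2.77, -2.53, -2.9 and -3.12 on control arrays (0.66, adjusted p = 0.0233). Against the control arrays rich and poor in muscle transcripts, the cold difference of Slc25a27 was 0.49 (adjusted p = 0.139) and 0.84 (adjusted p = 0.0268). With normexp background correction the only one of these 6 calls kept was that of Slc25a14 in Pparg knockdown. Slc25a27 then gave 0.06 in Pparg knockdown (adjusted p = 0.893), and Slc25a30 gave 0.49 at room temperature (adjusted p = 0.113) and 0.48 in the cold (adjusted p = 0.186).

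Among carriers without an assigned role here, Slc25a34 was lower in both knockdowns and higher on arrays labelled knockout at room temperature. It had -1.08, -0.62, -0.75 and -0.41 on Gyk knockdown arrays, against 0.09, 0.04, 0.31 and 0.7 on control arrays (-1 ± 0.2, adjusted p = 0.0222), and -1.98, -1.84, -1.98 and -2.21 on Pparg knockdown arrays, against -1.29, -1.12, -1.38 and -1.59 on control arrays (-0.66 ± 0.12, adjusted p = 0.0031). At room temperature it had 4.15, 4.76, 4.44 and 4.13 on arrays labelled knockout, against 3.77, 3.4, 3.52 and 3.92 on control arrays (0.72 ± 0.17, adjusted p = 0.00986). Slc25a45 was called higher at both temperatures, with -2.05, -1.83, -1.96 and -1.57 on arrays labelled knockout, against -2.51, -2.15, -2.92 and -2.15 on control arrays, at room temperature (0.58, adjusted p = 0.0353) and -1.95, -2.08, -2 and -1.68 on arrays labelled knockout, against -2.7, -2.44, -2.65 and -2.33 on control arrays, in the cold (0.6, adjusted p = 0.0123). Neither call was firm. With normexp background correction the room temperature difference was 0.28 (adjusted p = 0.328) and the cold one 0.48 (adjusted p = 0.0852), and with no filter on dim probes the room temperature call was lost too. Against the control arrays rich and poor in muscle transcripts the cold difference was 0.64 (adjusted p = 0.0436) and 0.56 (adjusted p = 0.0532). Together with Slc25a4 and Slc25a24, Slc25a34 and Slc25a45 were the 4 members lower in Pparg knockdown and higher at room temperature on arrays labelled knockout (11.8% of members tested in both, 1.62% of genes).

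The mitoferrin Slc25a37, which imports iron, had 0.36, 0.39, 0.42 and 1.16 on arrays labelled knockout at room temperature, against 1.22, 1.08, 1.46 and 1.88 on control arrays (-0.83 ± 0.23, adjusted p = 0.0185); it was the called member whose groups overlapped there. Developing red blood cells are rich in this carrier, and their markers moved in the same comparison: 4 of the 5 tested were lower (25% of all genes were), with a median difference of -0.945. Their summed level was 652 to 1020 times the 75th percentile on arrays labelled knockout at room temperature, against 943 to 2160 on control arrays. In the cold it was 1170 to 1980 on arrays labelled knockout, against 1110 to 1450 on control arrays, and none of the 5 was called. The part of red blood cell RNA in the Slc25a37 values was not tested. The knockout comparisons shared 6 lower members (Slc25a17, Slc25a20, Slc25a26, Slc25a32, Slc25a39 and Slc25a46), 50% of those lower at room temperature and 54.5% of those lower in the cold. They are 17.1% of the members tested in both, where 11.6% of genes were lower in both. Slc25a46 gave -0.73 at room temperature and -0.6 in the cold (-0.49 and -0.70 against the control arrays rich and poor in muscle transcripts). Slc25a47 (-0.76), Slc25a33 (-0.64) and Slc25a38 (-0.47) were lower at room temperature, and Slc25a23 (-0.69) and Slc25a28 (-0.44) in the cold. Normexp background correction left Slc25a47 at -0.33 (adjusted p = 0.397). The cold calls of Slc25a23 and Slc25a28 were lost against the control arrays poor in muscle transcripts, at -0.54 (adjusted p = 0.0938) and -0.29 (adjusted p = 0.186), and were kept against the rich ones, at -0.83 and -0.59. Of the higher members, Slc25a24, Slc25a30 and Slc25a45 were shared, 50% of those at room temperature and 75% of those in the cold, and 8.57% of members tested in both, where 5.85% of genes were higher in both. The knockout effect, cold minus room temperature, differed for 6 of 39 members, 3 in each direction (13.4% of all genes, 6.11% positive and 7.24% negative). It was more negative in the cold for Slc25a26 (-0.88 ± 0.15, adjusted p = 0.00279), Slc25a35 (-0.94 ± 0.23, adjusted p = 0.017) and Slc25a4 (-0.79 ± 0.19, adjusted p = 0.0177). Slc25a35 had 2.68, 2.77, 2.31 and 2.43 on arrays labelled knockout in the cold, against 3.97, 3.41, 3.26 and 3.59 on control arrays, but 1.78, 1.95, 2.03 and 1.5 on arrays labelled knockout, against 2.06, 1.75, 1.9 and 1.85 on control arrays, at room temperature. Against the control arrays rich and poor in muscle transcripts its cold difference was -1.14 and -0.88. The knockout effect was more positive in the cold for Slc25a37 (1.18 ± 0.29, adjusted p = 0.0188), Slc25a33 (0.78 ± 0.22, adjusted p = 0.0298) and Slc25a27 (0.79 ± 0.25, adjusted p = 0.0499). The median red blood cell marker gave 1.13 in the same test, with 1 of 5 called. The calls of Slc25a37, Slc25a33 and Slc25a27 were lost with normexp background correction. The Slc25a27 call was lost on leaving out any of 13 of 16 arrays, and that of Slc25a33 on 7. Without the cold control arrays rich in muscle transcripts 6 members again passed. Dimmer probes gave -0.29 for Slc25a26, 0.41 for Slc25a33 and 0.95 for Slc25a37 in this test of the knockout effect. The Slc25a33 call was also lost with the mean of the gene's probes.

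Cold and room temperature lay on different slides and scan days, so temperature and slide cannot be told apart here. In control mice 17 of 39 members were higher and 12 lower in the cold, and of all genes 41.6% were higher and 25.1% lower (66.7% together). Among the arrays labelled knockout 12 were higher and 13 lower, with 40.9% and 24.6% of all genes (65.5% together). The median of all genes was itself shifted by 0.231 and 0.232, while the median member lay at -0.0745 and -0.00955, so a small positive difference here is no more than that of the median gene. Of the members lower in the cold, 10 were shared between genotypes (83.3% of those in control mice and 76.9% of those on arrays labelled knockout). Of the members higher, 12 were shared (70.6% of those in control mice and 100% of those on arrays labelled knockout). Without the cold control arrays rich in muscle transcripts, 25 members were called in control mice. The cold control arrays left then shared a slide. Calls lost were those of Slc25a12 (0.50, adjusted p = 0.112), Slc25a32 (-0.20, adjusted p = 0.469) and Slc25a37 (-0.58, adjusted p = 0.0684). Those of Slc25a42 (0.59, adjusted p = 0.105) and Slc25a48 (-0.91, adjusted p = 0.0928) were lost too.

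Slc25a5 fell furthest among the members measured on both sides. It had 0.01, -0.25, 0.01 and 0.41 in control mice in the cold, against 4.85, 5.08, 5.12 and 5.17 at room temperature (-5.01 ± 0.13, adjusted p = 1.7e-13), and -0.31, -0.35, -0.4 and -0.56 on arrays labelled knockout in the cold, against 4.63, 4.6, 4.6 and 4.45 at room temperature (-4.98 ± 0.13). No cold array came near a room temperature array, but these lay on different slides. Between the slides of Pparg culture the Slc25a5 probe differed by -2.38 in knockdown and -2.8 in control cells. Between the slides of each mouse group it differed by -0.15 to 0.33. The Slc25a16 probe, read below, differed by -1.85 and -1.94 in Pparg culture and by -0.07 to 0.26 within mouse groups. Slc25a22, a glutamate carrier, was not well above background on any cold array, against 1.14, 0.77, 0.61 and 0.83 at room temperature in control mice. It was at least 46.8-fold lower in the cold in control mice and at least 48.4-fold lower on arrays labelled knockout. Slc25a15, the ornithine carrier, was likewise not well above background in the cold, at least 2.5-fold lower in control mice and 2.4-fold on arrays labelled knockout. With normexp background correction Slc25a15 was not called, at -0.35 in control mice (adjusted p = 0.412) and 0.11 on arrays labelled knockout (adjusted p = 0.794), and Slc25a22 was still called, at -3.21 and -2.99. These are smaller than the bounds, which hold for the main background correction only. Slc25a34 had 1.89, 1.06, 0.24 and 0.06 in the cold in control mice, against 3.77, 3.4, 3.52 and 3.92 at room temperature (-2.84 ± 0.46), and -2.94 on arrays labelled knockout. Slc25a16, counted with the cofactor carriers, had -2.55, -2.15, -2.05 and -2.22 in the cold in control mice, against -0.44, -0.65, -0.6 and -0.47 at room temperature (-1.7 ± 0.14), and Slc25a48 fell by 2.14 on arrays labelled knockout (-1.23, -0.09, -1.41 and -1.39 in the cold, against 1.65, 0.94, 0.87 and 0.98 at room temperature).

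Slc25a10 had the largest called rise in control mice, with -0.35, -1.22, -0.95 and 0.28 in control mice in the cold, against -3.96, -2.52, -3.32 and -3.77 at room temperature, where 2 arrays were well above background (2.83 ± 0.49, adjusted p = 0.000139), and by 2.6 on arrays labelled knockout. These were 1.55 and 1.62 with normexp background correction, both still called. Slc25a1 had 6.05, 5.14, 6.07 and 6.37 in the cold in control mice, against 4.64, 4.84, 3.7 and 3.35 at room temperature (1.78 ± 0.39, adjusted p = 0.000934). The citrate and dicarboxylate carriers thus rose together in control mice. Slc25a35 gave 1.67 ± 0.16 and Slc25a23, an ATP-Mg/phosphate carrier, 1.3 ± 0.16. Slc25a27 was not well above background at room temperature in control mice, at least 2.56-fold higher in the cold; Slc25a18, a glutamate carrier, was well above background on 2 of 4 cold arrays of each genotype and 0 at room temperature, at least 1.16-fold and 2.27-fold higher. In control mice both calls were lost with normexp background correction, at 0.53 (adjusted p = 0.131) for Slc25a27 and 0.37 (adjusted p = 0.407) for Slc25a18. Slc25a47 had -1.37, -1.21, -1.16 and -1.18 on arrays labelled knockout in the cold, against -3.47, -3.25, -3.33 and -2.85 at room temperature (1.99 ± 0.17), and in control mice it differed by 1.27. Slc25a26 and Slc25a4 rose in control mice by 0.87 and 0.8, and on arrays labelled knockout gave -0.01 and 0, which is the difference between genotypes tested above. Slc25a20 was -0.25 in control mice (adjusted p = 0.255) and -0.68 on arrays labelled knockout (adjusted p = 0.00596). The brighter Slc25a44 probe gave -0.04 and -0.25, and its dimmer probe -2.74 and -3.39, so that this gene has no single value here.

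**Figure D4:**
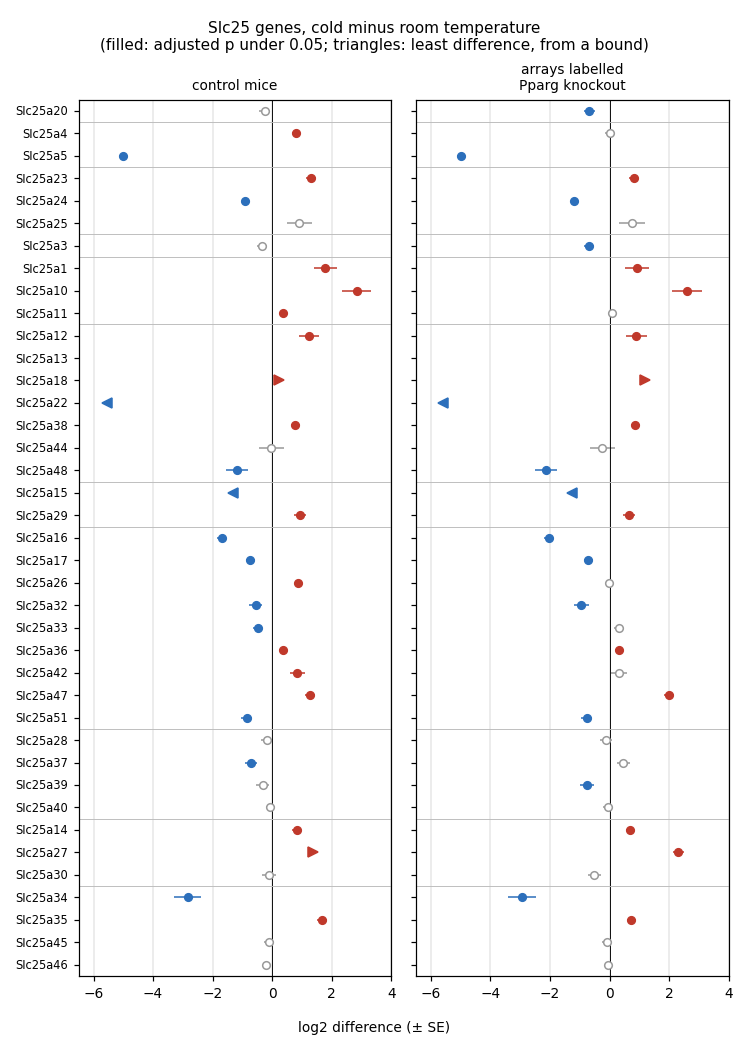
Log2 difference, cold minus room temperature, with its standard error, of the members tested, with 1 not reported here left out, in Pparg control mice and on arrays labelled Pparg knockout (4 arrays per group), ordered by carrier role; filled points passed an adjusted p of 0.05. Triangles stand at a bound, where the member was not well above background on any array of 1 group. The bound raises dim values to the array's lowest signal well above background, and holds for the main background correction only. Slc25a5 (-5.01 in control mice and -4.98 on arrays labelled knockout) lies lowest and Slc25a10 (2.83 and 2.60) highest of the members measured on both sides, and Slc25a22 was at least 46.8-fold and 48.4-fold lower.

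Lists of carrier partners were read beside the family. The 12 genes for the import of carrier proteins into mitochondria were Tomm20, Tomm22, Tomm40, Tomm70a, Timm8a1, Timm8b, Timm9, Timm10, Timm10b, Timm13, Timm22 and Timm29. Of these, 10 were lower in Pparg knockdown (83.3%, against 16% of all genes), and 1 in Gyk knockdown (8.33%, against 4.11%). On arrays labelled knockout, 10 were lower at room temperature (83.3%, against 25% of all genes) and 11 in the cold (91.7%, against 18.3%). The small Tim chaperones Timm9 and Timm10, which carry these proteins through the space between the membranes, gave -1.02 and -1 in Pparg knockdown. They gave -1.68 and -1.12 at room temperature and -1.17 and -0.74 in the cold. Timm22, the channel that inserts carriers, gave -0.54, -1.28 and -1.3. In Gyk knockdown the one lower import gene was Timm8a1 (-1.07).

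Of 18 metabolic partners, 10 were lower (55.6%, where 16% of all genes were) and 1 higher in Pparg knockdown. In Gyk knockdown 1 was lower (5.56%), near the 4.11% of all genes. On arrays labelled knockout 9 were lower (50%) and 2 higher at either temperature, where 25% of all genes were lower at room temperature and 18.3% in the cold. The enzymes on either side of Slc25a20 moved with it in part. Cpt1b, the outer-membrane carnitine palmitoyltransferase of muscle and brown fat, gave -1.53 in Pparg knockdown, -0.96 at room temperature and -0.94 in the cold. Cpt2, the inner-membrane enzyme, gave -1.17, -0.41 and -1.11. Cpt1a, the other isoform, rose on arrays labelled knockout, by 1.3 at room temperature and 1.48 in the cold. Among relatives of the family without an Slc25 symbol, Ucp1 gave -2.84 in Pparg knockdown, -0.96 in Gyk knockdown (control arrays 1 and 2 missing) and, on arrays labelled as deleted for Pparg, -1.02 (room temperature) and -1.01 (cold); all 4 were called. Ucp2 was -0.56 in Pparg knockdown but 2.91 and 3.47 on arrays labelled knockout.

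In Pparg culture, 3 members differed between the slides by more than 1 on knockdown and on control arrays alike, namely Slc25a5, Slc25a16 and the outer-membrane carrier Slc25a46. Slc25a5 had 0.61, 1.08, -1.56 and -1.5 on knockdown arrays, against 1.34, 1.56, -1.3 and -1.4 on control arrays; arrays 1 and 2 lay on the first slide. Slc25a16, well above background on 2 of 4 knockdown arrays, had -3.56, -3.26, -5.25 and -5.27 on Pparg knockdown arrays, against -2.91, -2.63, -4.58 and -4.83 on control arrays, and Slc25a46 had -0.19, -0.12, -1.71 and -1.39 on Pparg knockdown arrays, against 0.43, 0.48, -1.2 and -1.14 on control arrays. Across slides the groups overlapped and none was called (adjusted p = 0.788, 0.542 and 0.525). Within slides the knockdown lay lower each time, with differences of -0.6 and -0.18 for Slc25a5, -0.64 and -0.55 for Slc25a16 and -0.61 and -0.38 for Slc25a46. With the replicate number as a block their adjusted p-values were 0.0262, 0.000463 and 0.00252. The block also added Slc25a3, Slc25a23 and Slc25a28 as lower, and Slc25a29 and Slc25a38 as higher. In Gyk knockdown, Slc25a46 had 0.41, 0.19, -2.61 and -3.38 on Gyk knockdown arrays, against 0.7, 0.66, 0.71 and 0.82 on control arrays, a gap mostly on arrays 3 and 4; the difference of -2.07 was not called (adjusted p = 0.159), and a dimmer probe gave -0.61.

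**Figure D5:**
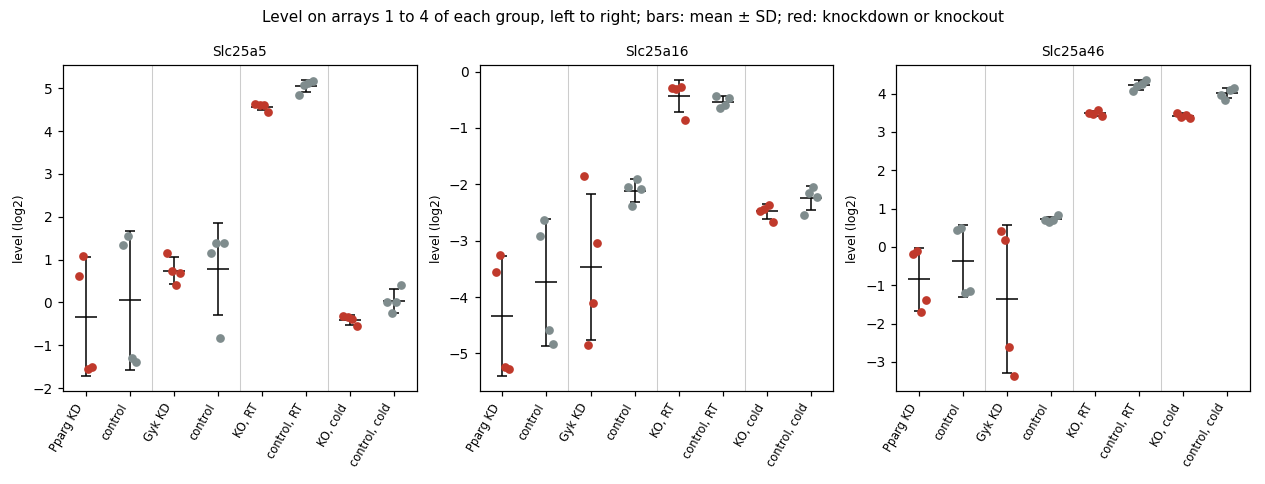
Log2 level relative to the array's 75th percentile of Slc25a5, Slc25a16 and Slc25a46 on each array, arrays 1 to 4 left to right within a group, with knockdown or knockout arrays in red and controls in grey. In Pparg culture arrays 3 and 4, on the second slide, lie below arrays 1 and 2 in both groups, as for Slc25a5 at -1.56 and -1.5 against 0.61 and 1.08 in the knockdown.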

How the data were processed

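RNA from 32 mouse samples was labelled with Cy3 and measured on 1 one-colour Agilent array each, per the labels' protocols. Per the file headers, the deposited linear intensity of each spot came from Feature Extraction 10.7.3.1, which subtracted background and removed spatial trends; no normalization between arrays was applied. From them log2 intensities minus each array's 75th percentile were computed, without control spots and without the 101 to 247 outlying spots per array. The number of arrays limits the precision.

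Identifiers of 27234 of 39429 probes (69.1%) matched a mouse gene in RefSeq's table (GRCm38.p6). The files name another build (mm9), so the table gave names only; promoters are from RefSeq's own table of that assembly. The limma package (version 3.58.1, R 4.3.3; lmFit and eBayes) tested each contrast, 2-sided. Benjamini-Hochberg adjusted p-values, taken over every gene in the fit, were called below 0.05. A gene entered with 4 or more arrays of the fit well above background. The fits were tested on simulated data with known changes. The simulated arrays were drawn independently of each other, so deviations shared within a slide were not covered. "At least" folds raise a dim value to its array's lowest signal with that call. Members with a textbook role in brown fat, and the up to 5 called members per direction that differed most in a comparison, were the ones to be named with values per array, printed where they bear on a result; 1 member is not reported here, though the counts include it. The members and lists were chosen with earlier results of these data known.

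Same-numbered arrays deviated together in the Pparg culture experiment (residual correlations 0.703 to 0.767) but so did arrays of other numbers on the same slide (0.69 to 0.725); in the other experiments some correlations were under 0.1. Alternatives tried were other background corrections, normalizations, filters and probe rules, 1 fit over all arrays, the slide or replicate number as a block, and leaving out arrays.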

Additional observations from a re-analysis of the deposited data

Results flagged for a closer look

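In 14 of 262 groups of 4 arrays, 1 array lay apart from the other 3 by Dixon's test at the 95% level, and chance alone gives about 1 in 20. On control arrays these were Slc25a20 in Pparg culture array 3 (2.21) and Slc25a18 there in array 1 (-6.27, not well above background). Others were Slc25a3 in Gyk control array 2 (4.23), Slc25a5 in Gyk control array 3 (-0.83), and Slc25a24 (-0.39) in Gyk control array 1. In control mice they were Slc25a12 at room temperature on array 1 (-2.57) and Slc25a22 in the cold on array 3 (-5.59, not well above background). On knockdown arrays they were Slc25a18 on Gyk array 2 (-5.03) and Slc25a22 on Pparg array 2 (-7.62), neither well above background. On arrays labelled knockout at room temperature they were Slc25a5 (4.45), Slc25a16 (-0.85) and Slc25a37 (1.16) on array 4 and Slc25a48 on array 1 (1.65). In the cold it was Slc25a48 on array 2 (-0.09). The Slc25a37 array lay above the other 3 of its group (0.36 to 0.42).

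The effect of Pparg knockdown differed from that of Gyk knockdown, each against its own controls, for Slc25a13 (-0.82), Slc25a24 (-1.34), Slc25a25 (-1.01), Slc25a32 (-0.67), Slc25a51 (-0.65) and Slc25a40 (0.81). The knockout effect in the cold differed from that at room temperature for Slc25a4 (-0.79), Slc25a26 (-0.88), Slc25a35 (-0.94), Slc25a27 (0.79), Slc25a33 (0.78) and Slc25a37 (1.18). Each is a limma test of the difference itself; the knockout tests also compare slides and scan days.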

How the results depend on the processing

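Called members numbered 23, 9, 18 and 15 in Pparg knockdown, Gyk knockdown, and the knockout comparisons (room temperature, then cold), 29 and 25 for cold against room temperature in control mice and on arrays labelled knockout, and 6 for each difference of effects. The Pparg knockdown count was 12 in one fit over all 32 arrays. The Gyk knockdown count was 3 with normexp background correction and 2 with no filter on dim probes. The count for the knockout effect, cold minus room temperature, was 3 with normexp. The count for the Pparg minus Gyk knockdown effect was 3 with normexp, 2 in one fit over all arrays and 10 with the slide as a block. Normexp also turned the split of higher against lower calls to 2 and 10 at room temperature and 1 and 13 in the cold. With the replicate number as a block the counts, in the order above, were 31, 0, 16, 19, 29, 26, 4 and 8. The 0 for Gyk knockdown stood beside 15 members at an unadjusted p below 0.05 and 0.908% of all genes called; the numbers do not pair those arrays. Leaving out 1 array gave 20 to 23, 2 to 11, 15 to 19, 13 to 18, 27 to 30, 22 to 26, 4 to 6 and 4 to 9. The Gyk extremes came without control array 3 and without knockdown array 1, and the 9 without Gyk knockdown array 3. Chosen after seeing the data, leaving out the dim Gyk knockdown arrays gave 8, and leaving out their whole slide gave 0 members (12 at an unadjusted p below 0.05, by limma) and 0 of all genes. Leaving out the cold control arrays rich in muscle transcripts gave 14 in the cold knockout comparison, and leaving out the poor ones 12. Slc25a32 reversed with outlier spots kept, to 0.34 for the knockout in the cold and 0.69 for cold on arrays labelled knockout. Slc25a15 reversed to 0.11 for cold on arrays labelled knockout with normexp. The causes were not tested. Calls kept under every alternative numbered 11, 0, 9, 5, 18, 20, 3 and 1.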
